A study of Arabidopsis thaliana with 6 samples.

Results

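The 10 genes described here make, modify or control indole glucosinolates in *Arabidopsis thaliana*, and they were followed in RNA-seq libraries from shoot apices of WT and *vip3-1* plants. They were selected on known pathway membership together with their behaviour in earlier results from these libraries, so the comparison of genotypes for these 10 genes is a description and carries no test. All 10 were among the 33554 genes of the deposited tables, and 9 passed the filter on low counts, which 20690 genes passed in all. Among them are the 6 core enzymes *CYP79B2*, *CYP79B3*, *CYP83B1*, *SUR1*, *UGT74B1* and *SOT16*. The others are *CYP81F2*, which modifies the finished compound, and the regulators *MYB34*, *MYB51* and *MYB122*.

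WT plants were of the Col-0 ecotype, and *vip3-1* is a T-DNA insertion line of *VIP3*, which encodes a subunit of the Paf1 complex, a partner of RNA polymerase during elongation. The study also places VIP3 in a complex of mRNA turnover. Plants of both genotypes were raised at 21°C in short days and were moved to 16°C and continuous light. Primary inflorescence apices were dissected until no flower older than stage 4 was left, and 30 to 35 apices went into each tube. RNA from 6 tubes per genotype was joined in pairs, which gave 3 libraries per genotype that the submitters call technical triplicates, so every test here measures the spread between pooled libraries, which may be technical.

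Libraries held between 50040048 and 69033269 counts. *VIP3* stood at 40.8, 41.7 and 40.1 CPM, the count scaled to the library size after TMM normalization, in WT and at 5.96, 7.41 and 7.30 CPM in *vip3-1*. It was thus lower in every mutant library, although some transcript remained. WT replicate 3 stood apart, with 1360 CPM summed over 15 genes of older flowers where the other 5 libraries lay between 48.0 and 124 CPM. Of the 20690 tested genes, 6354 (30.7%) were called between genotypes, with 14.6% higher and 16.1% lower in *vip3-1*. The genotypes did not overlap in CPM for 52.5% of the tested genes.

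Indole glucosinolates are sulfur-rich defence compounds made from tryptophan. *CYP79B2* and *CYP79B3* turn tryptophan into indole-3-acetaldoxime, which also feeds camalexin and some auxin synthesis, and *CYP83B1* commits it to glucosinolates. The product is joined to glutathione, cut by the C-S lyase *SUR1*, glucosylated by *UGT74B1* and sulfated by *SOT16* with PAPS, the activated form of sulfate. *MYB34*, *MYB51* and *MYB122* are R2R3-type MYB factors that activate these enzymes together with MYC-type partners.

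The sequences around the gene starts are shown because the *CYP79B2* and *CYP79B3* windows, which belong to the pair of genes with the widest difference between genotypes, share runs that were found in no other gene's window. Each window ran from 250 bases before to 50 bases after the annotated gene start, read 5′ to 3′ from the TAIR10.1 reference. The *CYP79B2* window lies at chr4:18524792-18525091 and the *CYP79B3* window at chr2:9488163-9488462, both on the plus strand. Capitals mark a run of 17 bases and a run of 22 bases that are identical in both windows and are parted by a single base that differs.
CYP79B2: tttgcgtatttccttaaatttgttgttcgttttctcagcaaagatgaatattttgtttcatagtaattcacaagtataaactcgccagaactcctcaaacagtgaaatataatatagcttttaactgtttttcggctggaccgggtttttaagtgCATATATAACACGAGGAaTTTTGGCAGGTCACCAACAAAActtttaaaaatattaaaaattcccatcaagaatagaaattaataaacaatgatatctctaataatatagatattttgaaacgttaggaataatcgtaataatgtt
CYP79B3: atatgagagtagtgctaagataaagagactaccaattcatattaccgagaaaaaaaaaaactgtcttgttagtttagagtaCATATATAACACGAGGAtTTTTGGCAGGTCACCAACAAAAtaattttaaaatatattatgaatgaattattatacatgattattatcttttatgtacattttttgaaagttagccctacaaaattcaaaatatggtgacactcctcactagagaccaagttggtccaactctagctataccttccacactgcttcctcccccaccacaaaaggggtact
The 22-base run began 77 bases before the *CYP79B2* start and 151 bases before the *CYP79B3* start. On either strand, each run was found in 2 of 27443 windows, which were these 2. The coding sequences of the pair were 80.7% identical over 1687 aligned bases, with 32 bases as the longest shared run.

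AC elements, which R2R3-type MYB factors are known to bind, were searched as ACCTACC, as ACCAACC and as ACCTAAC on both strands of the same windows, because *MYB34*, *MYB51* and *MYB122* belong to that class. At least 1 was found in 5 of the 10 windows and in 7.29% of the 27443. The elements are shown in capitals with up to 20 bases on each side.
CYP83B1: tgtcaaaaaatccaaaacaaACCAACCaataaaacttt
SUR1: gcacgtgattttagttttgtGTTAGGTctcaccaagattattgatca
UGT74B1: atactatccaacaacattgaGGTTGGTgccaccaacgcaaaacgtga
SOT16: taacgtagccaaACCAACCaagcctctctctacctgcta
CYP81F2: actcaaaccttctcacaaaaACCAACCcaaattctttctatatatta
In *SUR1* and *UGT74B1* the element lay on the other strand, so the capitals show its reverse complement. The windows of *CYP79B2*, *CYP79B3* and the MYB genes held none of the 3 spellings. The G-box CACGTG, a motif of MYC-type factors, was found in *SUR1* and *MYB122*, 2 of the 10 windows, and in 7.68% of all windows. A match of letters is not a binding site, and its absence says only that these letters are not in the window.

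**Figure D1:**
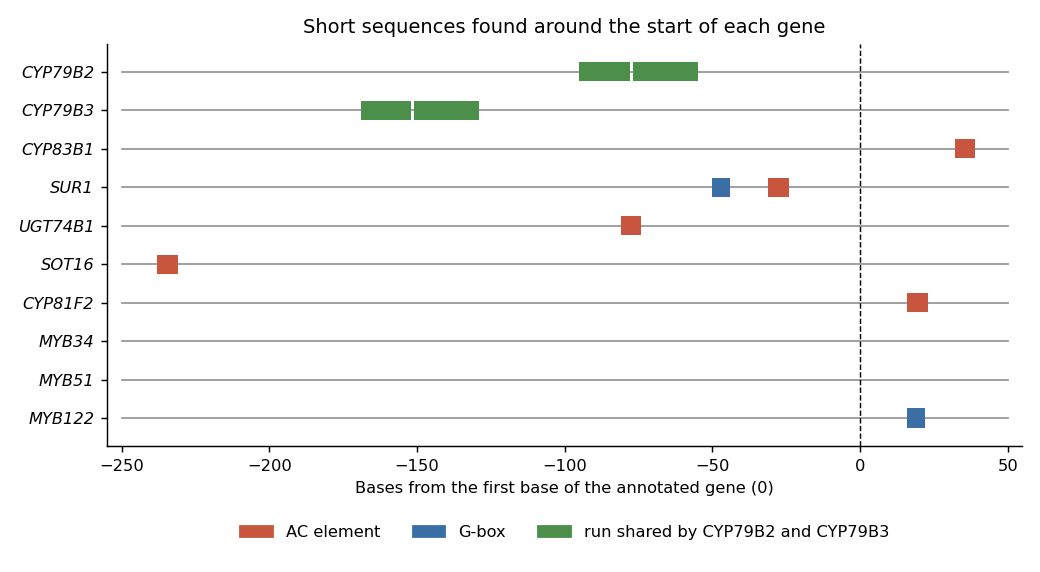
Positions of the AC elements, the G-boxes and the runs shared by *CYP79B2* and *CYP79B3* in the window of each gene, in bases from the first base of the annotated gene. The shared runs lie upstream in both genes, and AC elements occur in 4 core enzyme genes and in *CYP81F2*, on either side of the start.

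*CYP79B2* (AT4G39950, chr4:18525042-18527602 in TAIR10.1, as for all positions here) differed most between genotypes. It stood at 1.35, 1.04 and 0.894 CPM in WT replicates 1, 2 and 3 and at 50.2, 46.4 and 37.7 CPM in the *vip3-1* replicates. Even the lowest *vip3-1* library was far above the highest WT library. On the log2 scale, *vip3-1* exceeded WT by 5.34 ± 0.19 (SE, n = 3 per genotype), which is 40.5-fold. The WT levels came from 47 to 95 counts and the *vip3-1* levels from 1924 to 2585 counts. *CYP79B3* (AT2G22330, chr2:9488413-9491404), the second enzyme of the same step, stood at 1.64, 2.70 and 2.21 CPM in WT and at 18.3, 18.5 and 13.2 CPM in *vip3-1*. The genotypes did not overlap, and the log2 fold change was 2.94 ± 0.23 (SE), or 7.65-fold.

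The order of these enzymes was not the same in the genotypes. Per transcript length, as FPKM, *CYP79B2* lay below *CYP79B3* in each WT library and above it in each *vip3-1* library. The ratio of *CYP79B2* to *CYP79B3* FPKM was 0.720, 0.361 and 0.382 in WT and 2.37, 2.36 and 2.68 in *vip3-1*. In WT the mean FPKM was 0.562 ± 0.0766 (SD, n = 3) for *CYP79B2* and 1.24 ± 0.340 for *CYP79B3*, and in *vip3-1* it was 23.1 ± 2.39 and 9.41 ± 1.55.

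*CYP83B1* (AT4G31500, chr4:15273410-15275404) uses the aldoxime made by the previous pair. Its level was 65.3, 73.6 and 41.8 CPM in WT and 165, 155 and 125 CPM in *vip3-1*. WT replicate 3 was the lowest library and the genotypes did not overlap. The log2 fold change was 1.30 ± 0.22 (SE), or 2.46-fold. In WT it was the core enzyme gene with the highest mean level per length, at 35.9 ± 10.1 FPKM (SD), so that its FPKM was 54.1 to 82.2 times that of *CYP79B2*. In *vip3-1* it was still the highest, at 88.5 ± 9.31 FPKM, but only 3.81 to 3.85 times *CYP79B2*. The gap between *CYP79B2* and *CYP83B1* was thus much narrower at the transcript level in all 3 *vip3-1* libraries. *CYP79B3*, the other gene of the first step, had a higher WT mean than *CYP79B2* (1.24 against 0.562 FPKM) and rose less. Its gap to *CYP83B1* therefore narrowed less.

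*SUR1* (AT2G20610, chr2:8877887-8880440) had the narrowest difference of the core enzymes. It stood at 47.1, 48.1 and 43.2 CPM in WT and at 72.5, 65.8 and 59.1 CPM in *vip3-1*, with a log2 fold change of 0.51 ± 0.09 (SE). *SUR1* also serves the aliphatic branch, which starts from methionine. *UGT74B1* (AT1G24100, chr1:8525334-8527087) stood at 37.0, 40.4 and 30.9 CPM in WT and at 114, 99.3 and 93.3 CPM in *vip3-1*, with a log2 fold change of 1.50 ± 0.12 (SE). *SOT16* (AT1G74100, chr1:27864345-27865694), which prefers indole substrates, stood at 31.3, 30.8 and 26.8 CPM in WT and at 70.3, 60.1 and 55.9 CPM in *vip3-1*. Its log2 fold change was 1.07 ± 0.11 (SE). For *SUR1*, *UGT74B1* and *SOT16*, each *vip3-1* library was above every WT library.

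**Figure D2:**
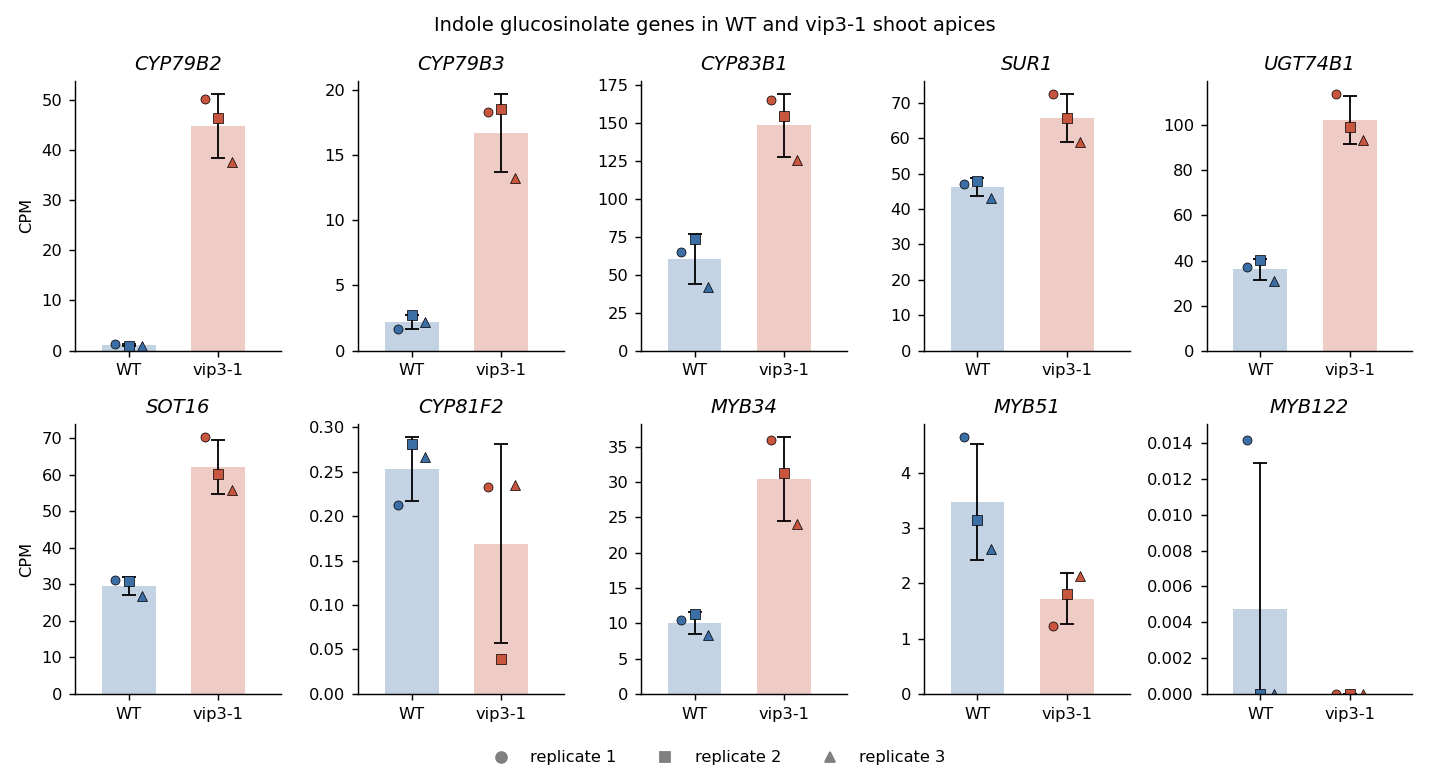
Level of each of the 10 genes in CPM, with 1 point per library, bars at the mean of 3 libraries and error bars of 1 SD, on linear axes that start at 0 and differ between genes. All 6 core enzymes and *MYB34* lie higher in every *vip3-1* library than in any WT library, *MYB51* lies lower, and *CYP81F2* and *MYB122* have at most 16 counts in any library.

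Per length, the WT mean levels of *CYP83B1*, *SUR1*, *UGT74B1* and *SOT16* followed each other from 35.9 to 25.6 FPKM, and neighbours in this order overlapped between libraries. In *vip3-1* the order was *CYP83B1*, *UGT74B1*, *SOT16* and *SUR1*, from 88.5 to 41.4 FPKM. *CYP83B1* and *UGT74B1* still overlapped there, while *UGT74B1*, *SOT16* and *SUR1* did not overlap with the next in the order. *SUR1* was second of the core enzymes in WT and behind *UGT74B1* and *SOT16* in *vip3-1*, and *CYP79B2* and *CYP79B3* were the lowest core enzymes in both genotypes.

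**Figure D3:**
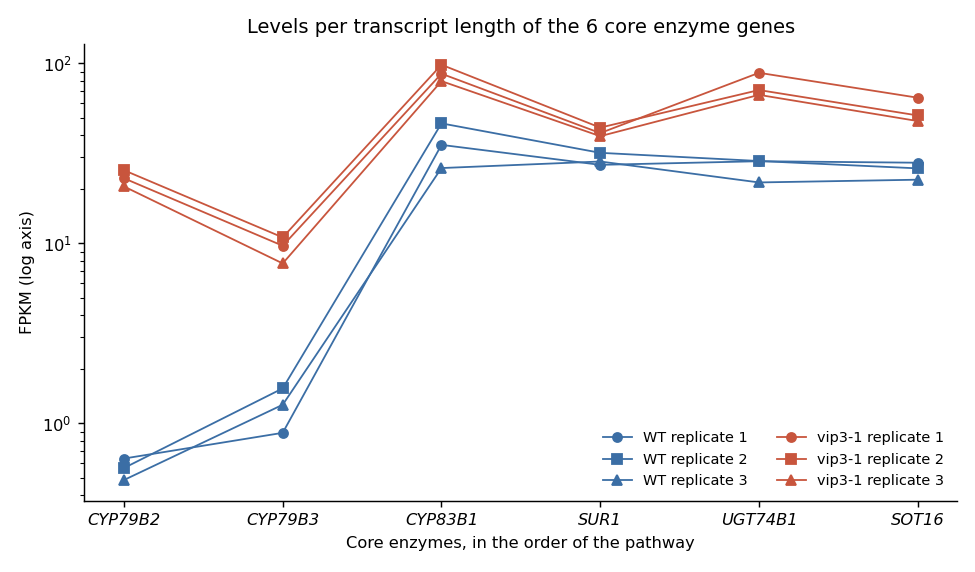
FPKM of the 6 core enzyme genes in the order of the pathway, on a log axis, with a line per library. The WT lines start between 0.484 and 0.637 FPKM at *CYP79B2* and the *vip3-1* lines between 20.7 and 25.5 FPKM, while the lines lie much closer together from *CYP83B1* onward.

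*CYP81F2* (AT5G57220, chr5:23187840-23189902) hydroxylates the indole ring of the finished glucosinolate and is known for its part in defence against fungi. Its counts were low, with 15, 16 and 14 counts in WT and 12, 2 and 12 counts in *vip3-1*. These are 0.213, 0.281 and 0.266 CPM in WT and 0.233, 0.0394 and 0.235 CPM in *vip3-1*, so the genotypes overlapped. The log2 fold change was -0.57 ± 0.61 (SE), less than its error.

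The regulators did not share a direction. *MYB34* (AT5G60890, chr5:24494291-24496371) stood at 10.5, 11.3 and 8.35 CPM in WT and at 35.9, 31.2 and 24.1 CPM in *vip3-1*, with no overlap and a log2 fold change of 1.60 ± 0.18 (SE), or 3.03-fold. *MYB51* (AT1G18570, chr1:6389399-6391386) stood at 4.65, 3.14 and 2.62 CPM in WT and at 1.22, 1.81 and 2.13 CPM in *vip3-1*. Its libraries did not overlap either, but the lowest WT and the highest *vip3-1* library lay close together. Its log2 fold change was -1.01 ± 0.31 (SE), and it moved by less than its SE when the replicate number was added as a block, where it was no longer called, nor was it without a filter on low counts or with limma on FPKM. Without single libraries it lay between -1.21 and -0.74, and the call was lost without WT replicate 1 (-0.74), without WT replicate 2 (-1.08) and without *vip3-1* replicate 1 (-0.82), 2 (-1.05) or 3 (-1.21). *MYB122* (AT1G74080, chr1:27855578-27857598) had 1 count in WT replicate 1 and none in the other 5 libraries, which is under the floor of 3 counts, so no fold is given.

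The FPKM of *MYB34* was 2.85, 4.52 and 4.00 times that of *MYB51* in WT and 36.1, 21.7 and 14.2 times in *vip3-1*. The *MYB34* to *MYB51* ratio was thus higher in every *vip3-1* library, but it varied most there, and *vip3-1* replicate 1 had both the highest *MYB34* and the lowest *MYB51*. The coding sequences of *MYB34* and *MYB51* were 60.7% identical, those of *MYB34* and *MYB122* 60.1%, and those of *MYB51* and *MYB122* 73.1%. No other annotated gene overlapped any of the 10 genes, and their estimated counts were whole numbers in every library.

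In all, 8 of the 9 genes that passed the filter were called, 7 higher and 1 lower, where 30.7% of all tested genes were called. The genes were chosen with this contrast in view, so nothing is read from that count. The 7 higher genes were called in all 15 alternative fits. Those fits use the same libraries, so nothing is read from that either. *CYP81F2* failed the test in each of the 12 fits that could include it.

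The libraries of a genotype differed in level too. All 7 higher genes were lowest in replicate 3 among the *vip3-1* libraries, by 0.13 to 0.32 on the log2 scale below the *vip3-1* mean. Among the WT libraries 6 of the 7 were lowest in replicate 3 and the exception, *CYP79B3*, was lowest in replicate 1. Of all tested genes, 43.5% were lowest in replicate 3 among the WT libraries and 37.3% among the *vip3-1* libraries. WT replicate 3 is the library with the high level of older flower genes. Leaving it out moved the log2 fold change of *CYP79B2* to 5.22, that of *CYP83B1* to 1.09 and that of *MYB34* to 1.48, and 8 of the 9 tested genes were called there as before.

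Genes that act beside the core enzymes come from lists written with earlier results of these data known. They hold 104 genes, of which 103 were in the tables and 84 were tested. Among these 84, 33 were higher and 6 lower, or 46.4% called, beside 30.7% of all tested genes, and 46 were called when the replicate number was added as a block. The median log2 fold change was 0.31 over the 84 genes and -0.02 over all tested genes. Without *vip3-1* replicate 1 the calls fell to 24 and without *vip3-1* replicate 2 to 25. A gene can pass the filter through the libraries of a single genotype. With at least 10 counts in every library the calls were 32, of which 27 were higher.

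The glutathione steps between *CYP83B1* and *SUR1* were higher in *vip3-1* for 2 of 3 genes (66.7% called, beside 30.7% of all tested genes). *GSTF9*, a glutathione transferase assigned to the conjugation step, stood at 567, 646 and 427 CPM in WT and at 1242, 1506 and 1260 CPM in *vip3-1*, with a log2 fold change of 1.29 ± 0.18 (SE, adjusted p = 0.00468). *GGP1*, the peptidase that trims the conjugate, rose by 1.15 ± 0.18 (adjusted p = 0.00743). The third gene, *GSTF10*, did not pass the test, at 0.23 (adjusted p = 0.0933). Both rises held in all 15 alternatives.

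Of the 8 genes that act on the side chain of the finished compound, 5 were tested and 1 was called (20%, beside 30.7% of all tested genes). *IGMT5*, a methyltransferase that acts on the hydroxyl group at the nitrogen of the indole ring, rose from 15.5, 17.1 and 10.2 CPM to 31.2, 36.1 and 25.3 CPM, a log2 fold change of 1.11 ± 0.22 (adjusted p = 0.0125). Without *vip3-1* replicate 2 its adjusted p was 0.0526. The other 4, which include the *CYP81F2* relatives *CYP81F1*, *CYP81F3* and *CYP81F4*, lay between -1.57 and 0.38 and did not pass. The methyltransferase genes *IGMT1*, *IGMT2* and *IGMT3* failed the filter on low counts.

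Tryptophan synthesis, which feeds *CYP79B2* and *CYP79B3*, had 11 genes tested, with 1 higher and 1 lower (18.2% called, beside 30.7% of all tested genes) and a median log2 fold change of 0.06. AT2G04400, which encodes indole-3-glycerol phosphate synthase, rose by 0.42 ± 0.07 (adjusted p = 0.00821). *PAI2*, a phosphoribosylanthranilate isomerase with near-identical relatives, fell by 0.66 on the log2 scale (SE 0.18, adjusted p = 0.0357). The fall of *PAI2* was no longer called with the replicate block (adjusted p = 0.0567), nor without WT replicates 1 or 2 or any *vip3-1* replicate. The call was also lost without a filter on low counts, with limma on log2(FPKM + 0.1) and on log2(FPKM + 1) without a filter. The adjusted p of *PAI2* ranged from 0.00864 to 0.103 over its 14 alternatives. The other 9 genes lay between -0.45 and 0.52. With the block, *TSA1* and *ASA2*, which encode tryptophan synthase and anthranilate synthase subunits, were called higher (adjusted p = 0.0102 and 0.0325).

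Sulfate assimilation and the supply of PAPS had 15 genes tested, of which 8 were higher and none lower (53.3% called, beside 30.7% of all tested genes). The median log2 fold change was 0.60. *APK2* (*AKN2* in the reference), a kinase that makes PAPS, stood at 5.21, 5.09 and 8.02 CPM in WT and at 38.5, 37.1 and 24.7 CPM in *vip3-1*, with a log2 fold change of 2.45 ± 0.25 (adjusted p = 0.00206). *APK1*, its relative, rose by 0.94 ± 0.10 (adjusted p = 0.00251). Both kinases held in all 15 alternatives. *APR1* and *APR2*, which reduce activated sulfate on the way to cysteine, rose by 1.73 ± 0.41 (adjusted p = 0.0223) and 0.95 ± 0.27 (adjusted p = 0.0386). The call of *APR1* was lost without WT replicate 1, *vip3-1* replicate 1 or *vip3-1* replicate 2, with an adjusted p of at most 0.0782. That of *APR2* was lost without WT replicate 1 or any *vip3-1* replicate and in every limma fit, with at most 0.122. The other 4 called genes were the ATP sulfurylases *APS1*, *APS2* and *APS3* and the phosphatase *SAL1*, between 0.29 and 0.75. *APS3* passed in all 15 alternatives, *APS1* in 7 of them, and *APS2* and *SAL1* in 10.

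Other regulators of the pathway had 10 genes tested, with 3 higher and none lower, a share called of 30.0% that is close to the 30.7% of all tested genes. *ATSDI1*, known to hold back glucosinolate synthesis when sulfur is scarce, rose from 3.58, 3.84 and 0.951 CPM to 12.4, 15.2 and 8.85 CPM, a log2 fold change of 2.11 ± 0.50 (adjusted p = 0.0233). It was not called without *vip3-1* replicate 1 or 2, with an adjusted p of at most 0.0854. *OBP2*, a DOF-type activator of *CYP83B1*, rose by 0.74 ± 0.11 (adjusted p = 0.00526). *MYC4*, a partner of the MYB factors, rose by 0.49 ± 0.08 (adjusted p = 0.00831). Its relatives *MYC2* and *MYC3* did not pass, at 0.28 (adjusted p = 0.263) and -0.05 (adjusted p = 0.739).

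Genes of glucosinolate breakdown moved in both directions, with 4 higher and 2 lower of 15 tested (40.0% called, beside 30.7% of all tested genes). *NIT3*, a nitrilase, stood at 13.5, 14.7 and 9.41 CPM in WT and at 31.9, 39.8 and 26.0 CPM in *vip3-1*, a log2 fold change of 1.38 ± 0.21 (adjusted p = 0.00667). *PEN2*, a myrosinase that cuts indole glucosinolates, fell by 0.80 on the log2 scale (SE 0.18, adjusted p = 0.0185). The nitrile specifier gene *NSP4* rose by 2.36 ± 0.50 (adjusted p = 0.0162). Another, *NSP3*, had 0, 0 and 1 counts in WT and 18, 32 and 21 counts in *vip3-1* (adjusted p = 0.00475). Its ratio was 83.4, with an exact 95% interval of 14.5 to 3340 that covers counting error only. *NSP3* passed the filter on low counts only through its *vip3-1* libraries, so nothing is read from its call. *NSP3* and *NSP4* were both left out of the fit with a minimum count in every library. The share called of this list includes both genes. *PEN2* lost its call without WT replicate 1 or *vip3-1* replicates 1 or 2, and with limma on log2(FPKM + 1) without a filter (adjusted p of at most 0.0701). *NSP4* lost its call without *vip3-1* replicates 1 or 2 (at most 0.0632). The other 2 called genes were *NIT1*, higher by 0.66, and *NSP1*, at -0.47. The classical myrosinases *TGG1* and *TGG2* stood at 562 and 722 CPM in WT replicate 3 and between 41.0 and 199 CPM in the other 5 libraries, and they did not pass.

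Transport had 1 gene higher and 1 lower of 6 tested, a share called of 33.3% that is close to the 30.7% of all tested genes. *UMAMIT31*, a glucosinolate exporter, fell by 1.67 on the log2 scale (SE 0.29, adjusted p = 0.00918), and *NRT1.9* (*GTR3*), an importer that takes up indole glucosinolates, rose by 1.17 ± 0.29 (adjusted p = 0.0259). The *NRT1.9* call was lost without WT replicate 2 or any *vip3-1* replicate and with limma on log2(FPKM + 0.1), with an adjusted p of at most 0.0888. Camalexin is the other product of indole-3-acetaldoxime in defence. The list for this branch, which is wider than camalexin synthesis, had 4 genes tested, with 2 lower (50% called, beside 30.7% of all tested genes). The median log2 fold change was -1.05. *CYP71B6* acts on indole-3-acetonitrile and is not a step of camalexin synthesis. It stood at 24.9, 22.6 and 27.0 CPM in WT and at 13.7, 13.2 and 16.2 CPM in *vip3-1*, and fell by 0.79 on the log2 scale (SE 0.11, adjusted p = 0.00468). *PAD3* (*CYP71B15*), the last camalexin enzyme, fell by 1.91 (SE 0.52, adjusted p = 0.0358) from levels under 1 CPM. Its call was lost without a filter on low counts and when any single WT replicate was left out. *PAD3* was also not called without *vip3-1* replicate 2 or 3 (adjusted p of at most 0.123 in these fits). Without *vip3-1* replicate 1 its log2 fold change was -2.69.

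Aliphatic glucosinolates, made from methionine, share *SUR1* with the indole branch and are not formed by *CYP79B2* or *CYP79B3*. Of 23 aliphatic genes, 15 were tested, and 13 were higher and none lower (86.7% called, beside 30.7% of all tested genes). The median log2 fold change was 1.75. *CYP83A1*, the aliphatic counterpart of *CYP83B1*, stood at 0.128, 0.193 and 0.361 CPM in WT and at 9.02, 5.59 and 4.29 CPM in *vip3-1*, a log2 fold change of 4.80 ± 0.48 (adjusted p = 0.00203). *IMD1*, a chain elongation gene, and *BAT5* (*BASS5*), a transporter that serves chain elongation, rose by 3.46 ± 0.39 (adjusted p = 0.00284) and 3.35 ± 0.67 (adjusted p = 0.0134). For *BAT5* the log2 fold change was 2.67 without *vip3-1* replicate 1 and 4.03 without WT replicate 3, and its call was lost with limma on log2(FPKM + 1) without a filter (adjusted p = 0.0690, the highest of its alternatives, of which the lowest was 4.68e-05). *IPMI2*, another elongation gene, had 3, 0 and 2 counts in WT and 49, 21 and 29 in *vip3-1* (adjusted p = 0.00826), a ratio of 23.3 with an exact 95% counting interval of 9.64 to 73.2. It passed the filter on low counts only through its *vip3-1* libraries, so nothing is read from its call. *CYP83A1*, *IMD1*, *BAT5* and *IPMI2* were all left out of the fit with at least 10 counts in every library. The share called and the median of this list include such genes. The other 9 called genes lay between 0.24 and 3.20, and *BCAT3*, *IIL1*, AT2G31790 and *MAM1* among them passed in only 5, 6, 5 and 7 of their alternatives. *CYP83B1* and *CYP83A1* were 65.2% identical over their coding sequences, and *SOT16* was 79.5% and 76.6% identical to the aliphatic *SOT18* and *SOT17*.

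**Figure D4:**
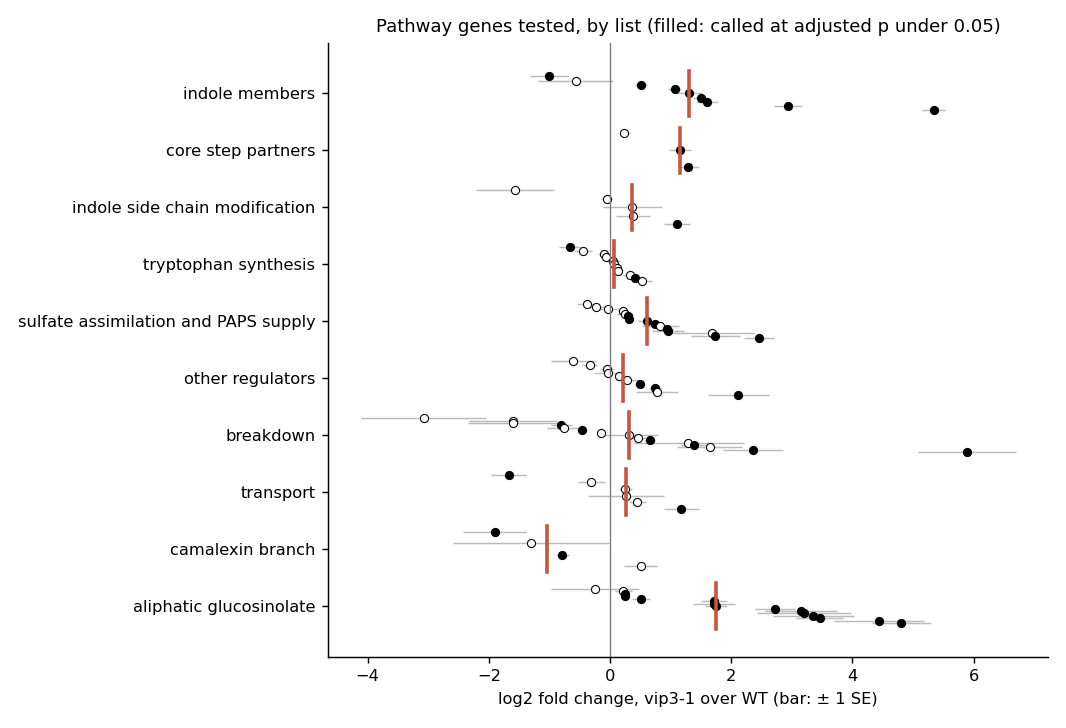
Log2 fold change (*vip3-1* over WT) of each tested gene, by list, with grey bars of 1 SE, filled circles for called genes and a red line at the median of each list. The aliphatic list has the highest median, 1.75, tryptophan synthesis lies around 0.06 and the camalexin branch at -1.05. The indole genes were chosen with this contrast known, and the other lists were written with earlier results of these data known.

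Medians of the lists did not move to 2 decimals when genes at or under 3 counts in each library of a genotype were set to their bound. On the chromosomes, the 10 genes have 20 nearest protein-coding neighbours, of which 15 were tested and 4 called, 26.7% beside 30.7% of all tested genes. These 4 were looked up after their values were seen. *APK2*, next to *CYP79B2* at a distance of 3436 bases, and *SOT18*, 151 bases from *SOT16*, were higher, while AT4G31510 next to *CYP83B1* and AT1G74088 next to *MYB122* were lower.

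The 5 genes outside all the lists named next followed the mean profile of the 6 core enzymes most closely over the 6 libraries. These were *AKR2B* (Pearson r of log2 CPM 0.999), *DREB19* (0.999), *HHP1* (0.999), AT1G68490 (0.999) and *WSD1* (0.998). Their log2 fold changes lay between 0.49 (*AKR2B*) and 2.11 (*DREB19*). With 2 genotypes that stand apart, r mostly reflects the gap between them, and 1215 tested genes had an r of at least 0.95. *MYB34* had an r of 0.99 with the same profile and *MYB51* of -0.84.

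The counts of called cell type markers that follow stand beside the 30.7% of all tested genes that were called. Summed over 6 genes, meristem and young flower markers lay between 753 and 919 CPM in WT and between 1183 and 1251 CPM in *vip3-1*, and 5 of 6 were called higher. Leaf mesophyll markers, 7 genes, lay between 4959 and 6951 CPM in WT and between 2341 and 3492 CPM in *vip3-1*, with 4 lower. Vascular markers, 8 genes, lay between 53.7 and 66.9 CPM in WT and between 102 and 136 CPM in *vip3-1*, with 4 higher, and epidermal markers, 5 genes, between 2155 and 2396 CPM in WT and between 2739 and 2980 CPM in *vip3-1*, with 3 higher. Of the 15 older flower markers, whose sum set WT replicate 3 apart, 13 were tested. Among them 2 were higher and none lower (15.4% called), and the median log2 fold change was -2.46. No marker in these lists was at 0 in all libraries. Wound and elicitor response genes, 8 in number, summed to between 181 and 243 CPM in WT and between 191 and 242 CPM in *vip3-1*. Of these, 3 were higher, the jasmonate-responsive *JAZ1*, *JAZ5* and *JAZ10*, and *FRK1* was lower, and only *JAZ10* passed in every alternative. The part of these marker differences in the levels of the indole glucosinolate genes was not tested, and in apices measured in bulk a change in the number of cells of a type and a change in RNA per cell cannot be told apart.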

How the data were processed

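RNA-seq was compared between 3 WT and 3 *vip3-1* libraries of shoot apices. According to the study's methods and processing notes, reads were trimmed with Trimmomatic, mapped to TAIR10 with TopHat2 2.0.6, Bowtie2 2.0.5 and SAMtools 1.2, and quantified with Cufflinks 2.1.1. The deposited estimated counts per gene were not scaled by the authors, and they were rounded, since 1059 genes held values that are not whole (1.47% of all values). The deposited FPKM values were scaled by the authors for transcript length and mapped fragments. How fragments of overlapping or similar genes were assigned, and whether strand was used, is not given in the sources used here. A deposited table of the authors' own comparison holds mean FPKM, fold changes and test values, and only its gene coordinates were read.

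Genotypes were compared over all 33554 genes with edgeR 4.0.16 in R 4.3.3 (filterByExpr, TMM, quasi-likelihood test with genotype as the only factor, Benjamini-Hochberg adjustment over all 20690 tested genes). A gene was called at an adjusted p under 0.05. The SE of a log2 fold change is its size over the square root of the F value. Log2 CPM used a prior count of 2. The floor was 3 counts per library.

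Alternatives were DESeq2 1.42.0, library sizes without TMM, no filter, a minimum of 10 counts per library, limma 3.58.1 on log2(FPKM + 1) and log2(FPKM + 0.1), with genes of at least 1 FPKM in 3 libraries, log2(FPKM + 1) without a filter, genes with whole counts only, an adjusted p under 0.01, the replicate block, and each library left out. Fits were tested on simulated counts. Replicate numbers come from the labels, and the study does not say that same-numbered libraries were handled together. Deviations from the genotype mean correlated between same-numbered libraries at 0.22, 0.19 and 0.37, and between differently numbered libraries at -0.44 to 0.29. The numbers were used as pairs in the replicate block only, and the main test was not paired. No library was a copy of another (chi-square per degree of freedom 22.6 to 138).

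The genes, the lists and the tests were chosen with earlier results of these data known. Named are all 10 genes, the called genes of each list without overlap between genotypes (at most 4, by log2 fold change), and the 5 genes outside the lists most like the core enzymes. Gene starts and sequences come from RefSeq's TAIR10.1, in which 32807 of the gene identifiers were matched. All 4876 genes compared with the coordinates in the authors' table lay on the same chromosome and overlapped, and 320 had the same first and last base. Coding sequences were aligned with MAFFT 7.526. *ESM1* was not analysed here.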

Additional observations from a re-analysis of the deposited data

How the results depend on the processing

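No log2 fold change of the indole glucosinolate genes or of the 24 other named pathway genes changed sign in any alternative. The widest shifts among the indole genes were those of *CYP79B2* and *CYP79B3* to 3.94 and 2.22 with limma on log2(FPKM + 1), with or without a filter, a scale that understates the change of low genes. On log2(FPKM + 1) without a filter, *NSP3*, *NSP4*, *UMAMIT31*, *NRT1.9*, *PAD3*, *CYP83A1*, *IPMI2*, *IMD1* and *BAT5* also had folds over 1.5 times smaller. Of all genes, 6354 were called, and 3639 with limma on log2(FPKM + 1), 3603 on log2(FPKM + 0.1), 3297 on log2(FPKM + 1) without a filter and 2163 at an adjusted p under 0.01. Leaving out single libraries gave 2673 (without *vip3-1* replicate 2) to 8055 calls (without WT replicate 3), with 3238 without *vip3-1* replicate 1, 3698 without *vip3-1* replicate 3 and 4164 without WT replicate 2. The 8 calls among the indole genes became 7 to 8 without single libraries and 6 at an adjusted p under 0.01. The indole genes were chosen with this contrast known, so their calls are a description only. The 39 calls among the other pathway genes became 24 with limma on log2(FPKM + 1), 22 on log2(FPKM + 0.1), 19 at an adjusted p under 0.01 and 24 to 49 without single libraries. Without TMM, 32.2% of the calls over all genes were higher in *vip3-1*, against 47.7%, and the median log2 fold change moved by -0.10, while the 7 higher indole genes stayed called.

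When the replicate block was added, 7388 genes were called in all, 7 of the indole genes and 46 of the other pathway genes. The block ended the calls of *MYB51* and *PAI2* and added 8 pathway calls, those of *ASA2*, *TSA1*, *APR3*, *GSH1*, *TAAC*, AT1G04770, *NSP5* and *BGLU28*, and it changed no other call among the pathway genes. Of the markers, *AMS*, *ACOS5*, *SUC2* and *ZAT12* gained a call and ATA7 and *VND7* lost theirs. Of the 24 named pathway genes, 14 kept their call in every alternative that could be fitted. In the smallest designs, 2 libraries were set against 3. *MYB122* was under the floor of 3 counts in every library, and with 2 to 16 counts per library the log2 fold change of *CYP81F2* was smaller than its SE. Precision is limited by the 3 pooled libraries per genotype.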
